A study of Homo sapiens with 24 samples.

Results

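Mitochondrial DNA (mtDNA) encodes a small set of subunits of the respiratory chain and of the ATP synthase, and every other subunit of these complexes comes from nuclear genes. Its mRNAs are copied inside the organelle by the RNA polymerase POLRMT as long transcripts of both strands and cut out of them. Most are polyadenylated by MTPAP, and mitochondrial ribosomes translate these mRNAs. Nuclear mRNAs are instead translated by cytosolic ribosomes, and several of these on 1 mRNA form the polysomes that a sucrose gradient separates by density. The 10 mitochondrially encoded mRNAs described here are MT-ND1, MT-ND2, MT-ND3, MT-ND4 and MT-ND5 of complex I, MT-CYB of complex III, MT-CO1, MT-CO2 and MT-CO3 of complex IV and MT-ATP6 of the ATP synthase. They were selected by symbol, as 10 of the 20345 rows of the count table, and they are 10 of its 13 mtDNA protein-coding genes. MT-ND4L, MT-ND6 and MT-ATP8 are the other 3 and are given beside them. This group was proposed with its low polysomal-to-total ratio known, so that ratio and the library shares behind it are given as descriptions, with no test.

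Total RNA and heavy polysomal RNA (gradient fractions 13 to 17) of cells labelled as A2058, an established human melanoma line, were sequenced in 24 libraries. The methods of the study name A2058 too, while a caption of it names A375, another melanoma line, for these translation efficiencies. The cells carried a scrambled siRNA (siCTRL) or an siRNA against LSM14A (siLSM14A), an RNA-binding protein of cytoplasmic granules and the human ortholog of yeast Scd6, and were left untreated (NT) or given hydroxyurea (HU), an inhibitor of ribonucleotide reductase, at 10 mM for 2 h. Each of these 4 conditions had 3 replicates in each fraction, and a total and a polysomal library of the same condition and number are called 1 culture here, which gives 12 cultures. The labels do not say that replicates were separate cultures, so p-values measure the spread between these samples, which may be technical. All cells received cycloheximide, which holds cytosolic ribosomes on their mRNAs, before lysis, and libraries were made from polyadenylated RNA.

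The libraries held 24789280 to 40645263 counts in total RNA and 28776634 to 44897501 in polysomal RNA. LSM14A stood at 90.8 to 102 CPM (counts scaled to a library of 1000000) in the 6 total libraries of siCTRL cells and at 6.81 to 9.29 CPM in the 6 of siLSM14A cells. In polysomal RNA, LSM14A ranged from 23.6 to 52.0 CPM in siCTRL and from 1.59 to 2.47 CPM in siLSM14A cells, so the knockdown was visible in every library. All 10 melanocyte and melanoma markers examined, such as SOX10 and PMEL, exceeded 1 CPM in every total library, whereas 4 of 5 markers of other cell types stayed under 1 CPM and KRT14 reached 1.11 to 3.19 CPM.

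The 10 genes lie on the plus strand of the mtDNA of GRCh37, a circle of 16569 bases, each as 1 exon without introns. MT-ND1 (ENSG00000198888) lies at chrM:3307-4262, MT-ND2 (ENSG00000198763) at chrM:4470-5511, MT-CO1 (ENSG00000198804) at chrM:5904-7445 and MT-CO2 (ENSG00000198712) at chrM:7586-8269. MT-ATP6 (ENSG00000198899) lies at chrM:8527-9207, MT-CO3 (ENSG00000198938) at chrM:9207-9990 and MT-ND3 (ENSG00000198840) at chrM:10059-10404. MT-ND4 (ENSG00000198886) lies at chrM:10760-12137, MT-ND5 (ENSG00000198786) at chrM:12337-14148 and MT-CYB (ENSG00000198727) at chrM:14747-15887. MT-ATP6 shares 46 bases with MT-ATP8 upstream of it and 1 base with MT-CO3, and MT-ND4 shares 7 bases with MT-ND4L. STAR does not count a read that overlaps 2 genes, so counts of MT-ATP6 and MT-ATP8 leave out part of their reads.

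The sequences show how the reading frames differ from those of cytosolic mRNAs. Each is printed 5′ to 3′ on the plus strand of GRCh37, and the first set shows the start of the lowest-ratio mRNA, MT-ND5, of MT-ND2 and of the highest-ratio mRNA, MT-CO2, with the start codon in capitals.
MT-ND5, chrM:12337-12366: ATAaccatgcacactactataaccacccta
MT-ND2, chrM:4470-4499: ATTaatcccctggcccaacccgtcatctac
MT-CO2, chrM:7586-7615: ATGgcacatgcagcgcaagtaggtctacaa
MT-ND1, MT-ND3 and MT-ND5 began with ATA, MT-ND2 with ATT and the other 6 with ATG. The next set shows the first in-frame TGA, in capitals, which codes for tryptophan on mitochondrial ribosomes and is a stop codon on cytosolic ones.
MT-CO1, chrM:5907-5933: ttcgccgaccgtTGActattctctaca
MT-CO2, chrM:7766-7792: atagaaaccgtcTGAactatcctgccc
MT-ND5, chrM:12520-12546: attatctcgaacTGAcactgagccaca
Every one of the 10 reading frames held in-frame TGA codons, from 3 in MT-CO2 and MT-ATP6 to 16 in MT-CO1, and the first stood between codon 6 in MT-CO1 and codon 86 in MT-ND1. The last set shows 3 kinds of ending, with the final codon or the bases left of it in capitals.
MT-ND4, chrM:12108-12137: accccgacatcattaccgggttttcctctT
MT-CO1, chrM:7416-7445: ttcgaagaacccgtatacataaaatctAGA
MT-ND5, chrM:14119-14148: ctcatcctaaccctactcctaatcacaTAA
MT-ND1, MT-ND2, MT-CO3, MT-ND3, MT-ND4 and MT-CYB ended in a T or TA that polyadenylation completes to a stop codon, MT-CO1 ended in AGA, and MT-CO2, MT-ATP6 and MT-ND5 ended in a full TAG or TAA.

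The 10 mRNAs made up 6.71% to 8.61% of the counts of total RNA, with a median of 7.80% over 12 libraries. In polysomal RNA they made up 0.620% to 1.91%, with a median of 1.02%. The lowest total library therefore lay above the highest polysomal library, and within a culture the share was 4.50 to 11.1 times higher in total than in polysomal RNA, with a median of 7.21. In untreated siCTRL cells the share of total RNA was 6.89%, 8.33% and 7.85% in the 3 cultures (mean 7.69% ± 0.731, SD, n = 3), and that of polysomal RNA was 0.682%, 1.28% and 1.40% (mean 1.12% ± 0.384). In siCTRL cells with HU the total share was 6.71%, 8.19% and 8.61% (mean 7.84% ± 0.994) and the polysomal share 0.620%, 0.737% and 1.91% (mean 1.09% ± 0.715), a mean that was 0.678% without culture 3. In untreated siLSM14A cells the total share was 7.69%, 7.93% and 7.24% (mean 7.62% ± 0.350) and the polysomal share 0.972%, 1.44% and 0.687% (mean 1.03% ± 0.383). In siLSM14A cells with HU the total share was 6.71%, 8.47% and 7.74% (mean 7.64% ± 0.885) and the polysomal share 1.06%, 0.965% and 1.68% (mean 1.24% ± 0.387). The ranges of the 4 conditions overlapped in both fractions, and the 3 polysomal shares within 1 condition were spread more widely than the means of the 4 conditions.

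**Figure D1:**
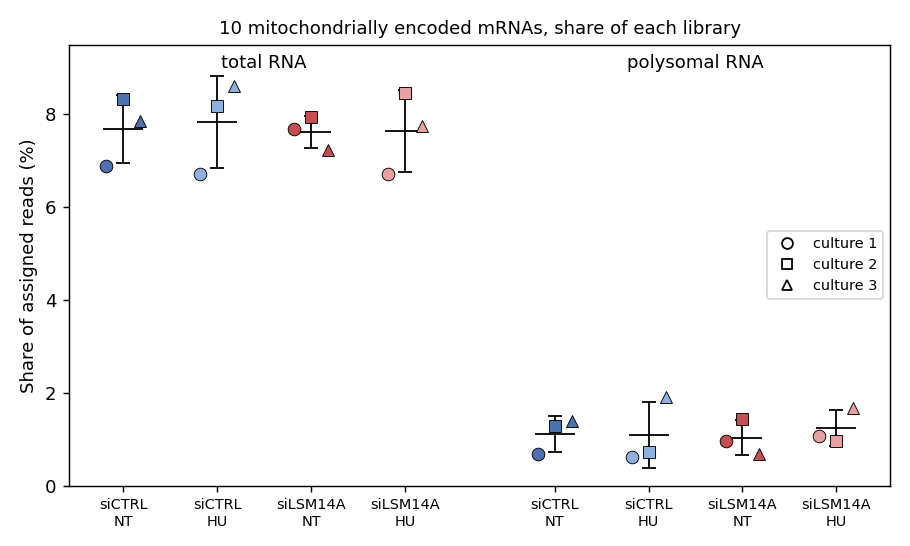
Share of assigned reads (%) taken by the 10 mitochondrially encoded mRNAs in each of 24 libraries, by fraction and condition, with symbols for replicate numbers 1 to 3, a horizontal line at the mean and bars of 1 SD. The 12 total libraries sit between 6.71% and 8.61% and the 12 polysomal libraries between 0.620% and 1.91%, with the 4 conditions overlapping in each fraction.

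Within the group, total RNA was led by the subunits of complex IV. MT-CO1, MT-CO2 and MT-CO3, whose proteins form the core of cytochrome c oxidase, held 56.2% to 60.8% of the 10 genes' counts, the 5 complex I mRNAs 22.5% to 27.1%, MT-CYB 10.9% to 13.1% and MT-ATP6 4.14% to 5.40%. Per kilobase, MT-CO2 had the highest level in total RNA, at 16043 to 21778 CPM per kb (median 18817), and MT-CO3 followed at 15188 to 18729 (median 17205), with overlapping ranges. MT-CO1 followed at 10903 to 13798 CPM per kb (median 12586), below every library of MT-CO3. MT-CYB, the only mtDNA subunit of complex III, ranged from 7235 to 8840 CPM per kb, MT-ND4 from 6013 to 8586 and MT-ATP6, the proton channel subunit of the ATP synthase, from 4076 to 6716, each overlapping its neighbour. MT-ND2, MT-ND1, MT-ND5 and MT-ND3 stood lowest, with medians of 2598, 2360, 1793 and 1020 CPM per kb. Levels per kilobase of annotated length thus differed 18.5-fold between the medians of MT-CO2 and MT-ND3, which lie on the same strand. Whether the short length of MT-ND3, 346 bases, lowered its level in these libraries was not tested. Polyadenylated RNA was selected, so a level here is that of polyadenylated mRNA.

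In polysomal RNA the order per kilobase was much the same. MT-CO2 and MT-CO3 again led, with medians of 3104 and 2677 CPM per kb, and MT-CO1 followed at 1407, MT-CYB at 1215, MT-ND4 at 763 and MT-ATP6 at 711. MT-ND5 moved to the last place, at a median of 140 CPM per kb, against 159 for MT-ND3, which stood last in total RNA. The complex IV mRNAs held 55.5% to 67.4% of the 10 genes' polysomal counts and the complex I mRNAs 16.9% to 23.9%. MT-CO1 took a median of 24.98% of the 10 genes' counts in total RNA and 20.9% in polysomal RNA, while MT-CO2 took 16.8% and 21.01%.

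All 10 mRNAs were lower in polysomal than in total RNA in all 12 cultures. The measure is the log2 ratio of polysomal to total CPM, in which 0 means an equal share of both libraries, and the median of the 10 mRNAs was −2.93 in the median culture, equal to 13.2% of the total level. MT-ND5, a proton-pumping subunit of complex I, had the lowest ratio of the 10 in every culture. In untreated siCTRL cells MT-ND5 read 2807, 3785 and 3315 CPM in total RNA against 153, 272 and 473 CPM in polysomal RNA, which are log2 ratios of −4.20, −3.80 and −2.81. In siCTRL cells with HU its ratios were −4.59, −4.52 and −2.50, in untreated siLSM14A cells −3.76, −3.43 and −4.72, and in siLSM14A cells with HU −3.14, −4.33 and −2.36. Each condition thus held cultures with high and with low ratios of MT-ND5, and the conditions overlapped.

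MT-CO2, which carries the copper site that receives electrons from cytochrome c, had the highest median ratio, −2.52. In untreated siCTRL cells MT-CO2 read 12702, 12899 and 13416 CPM in total RNA against 1560, 2703 and 2496 CPM in polysomal RNA, which are log2 ratios of −3.03, −2.25 and −2.43. Its ratios were −2.81, −2.83 and −2.17 in siCTRL cells with HU, −2.61, −2.17 and −2.99 in untreated siLSM14A cells, and −2.39, −2.71 and −2.12 in siLSM14A cells with HU. MT-CO2 ranked 8 to 10 of the 10, counted from the lowest ratio, in every culture, and its ratios spread less over cultures than those of MT-ND5.

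The other 8 mRNAs fell between these. MT-ND4, another proton-pumping subunit of complex I, had a median log2 ratio of −3.36 (range −3.99 to −2.26), MT-ND2 −3.09 (−3.80 to −2.16) and MT-CO1 −3.08 (−4.17 to −2.18). MT-ND1, at the junction of the membrane and peripheral arms of complex I, had a median of −2.97 (−3.33 to −2.28) and MT-ATP6 one of −2.93 (−3.45 to −2.10). MT-CYB, the cytochrome b of complex III, had a median of −2.72 (−3.54 to −1.87), MT-ND3 one of −2.65 (−3.16 to −2.13) and MT-CO3 one of −2.58 (−3.23 to −2.11). Of the 45 pairs of the 10 mRNAs, 17 stood in the same order in all 12 cultures. The ranges of neighbouring genes in this order overlapped widely over cultures. Of the 3 mtDNA mRNAs outside the group, MT-ATP8 had a median of −3.97, MT-ND4L −3.32 and MT-ND6, the only one on the minus strand, −2.98.

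**Figure D2:**
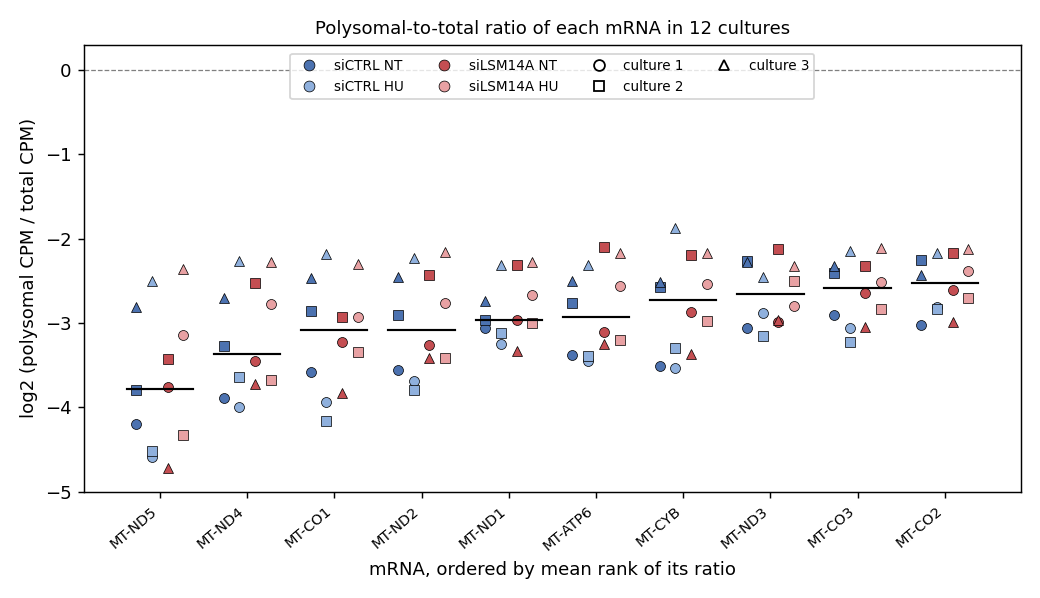
Log2 ratio of polysomal to total CPM (y axis) of each of the 10 mRNAs (x axis) in 12 cultures, with colours for the 4 conditions, symbols for replicate numbers 1 to 3 and a line at the median of the 12. All points lie at or under −1.87, MT-ND5 is lowest with a median of −3.78 and MT-CO2 highest with −2.52, and cultures of each condition are spread over the range.

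Among nuclear genes few had ratios this low. Of 12855 genes tested, the members lay between the 0.109 and the 5.96 percentile over all 12 cultures. Between 47 and 489 of the 12842 tested genes outside mtDNA lay under the median member of a culture, with a median of 115. The median over all tested genes was −0.39 in the median culture. Over the 4 conditions, the means of the members' median ran from −3.03 to −2.68 by CPM and from −2.64 to −2.36 with TMM scaling. TMM scales every gene of a library by the same factor, so it cannot change the order of genes within a culture. Nuclear genes were ranked by ratio in untreated siCTRL cells only among the 9007 with a mean of at least 10 CPM. The 5 lowest of these were KIAA2026 (mean −3.50 ± 0.885, SD, n = 3), KMT2E (−2.999 ± 0.992), GOLGA4 (−2.98 ± 1.15), ANKRD26 (−2.94 ± 1.23) and CSGALNACT2 (−2.94 ± 0.919). Their exons, merged over all annotated transcripts, add up to 3765 to 13704 bases, whereas the members measure 346 to 1812 bases.

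The nuclear partners of the 10 mRNAs differed from them in this measure. The 75 nuclear-encoded subunits of the respiratory chain and ATP synthase that were tested, of 76 listed, had a median log2 ratio of −0.03 in the median culture, equal to 97.6% of the total level, with culture medians from −0.12 to 0.28. The medians were −0.77 for 9 genes of mitochondrial transcription, −0.27 for 21 of mitochondrial RNA processing and stability, −0.48 for 16 of mitochondrial translation and −0.52 for 12 of mtDNA replication and its nucleotide supply. POLRMT, the mitochondrial RNA polymerase, was higher in polysomal RNA, at a median of 225% of its total level over 12 cultures, and so were TUFM, the mitochondrial elongation factor Tu, at 197% and LRPPRC, which binds and stabilises mitochondrial mRNAs, at 160%. SLIRP, the partner of LRPPRC, stood at 70.3%, and PNPT1, a mitochondrial RNA-degrading enzyme, at 70.0%. MTPAP stood at 42.7%, TFAM, which packages mtDNA and starts its transcription, at 42.4% and RRM2B, a ribonucleotide reductase subunit that supplies mtDNA synthesis, at 36.6%.

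**Figure D3:**
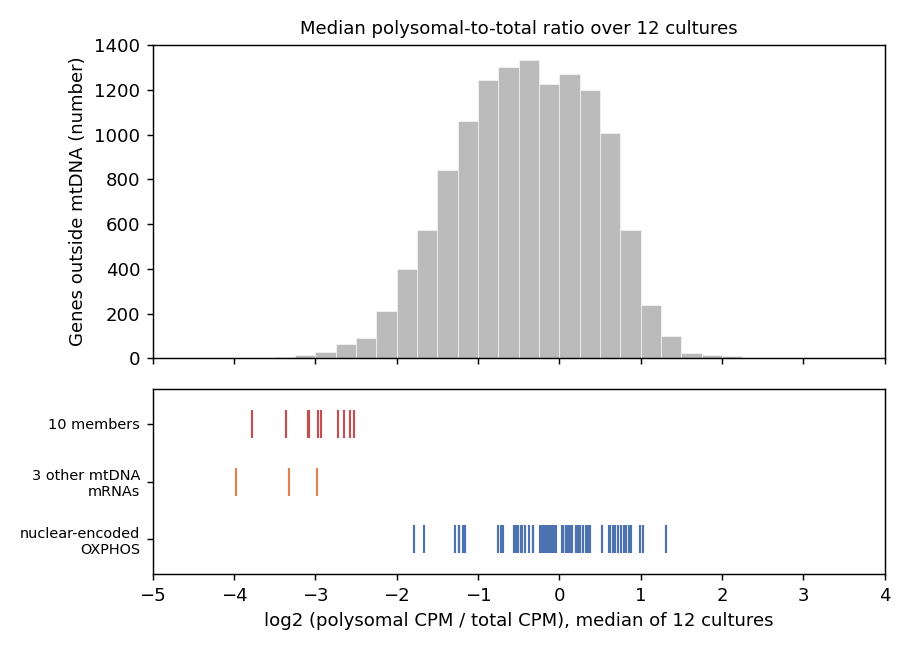
Top, number of genes outside mtDNA (y axis) by their median log2 ratio of polysomal to total CPM over 12 cultures (x axis, bins of 0.25), and bottom, 1 tick per gene for the 10 mRNAs, the 3 other mtDNA mRNAs and the 75 nuclear-encoded subunits of oxidative phosphorylation (OXPHOS). By these medians the 10 mRNAs lie from −3.78 to −2.52 in the low tail, under every nuclear-encoded subunit. The ranges overlapped in some single cultures, among them siCTRL NT culture 2 (lowest subunit −4.66, lowest of the 10 mRNAs −3.80).

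The ratios of the 10 mRNAs moved together from culture to culture. The members' median ran from −3.50 in siCTRL HU culture 1 to −2.22 in siLSM14A HU culture 3, an SD of 0.48 over 12 cultures. Each member's ratio correlated with that median at r = 0.82 (MT-ND3) to r = 0.98 (MT-ATP6), over 12 cultures and with both values taken from the same libraries. The median includes the member itself, so part of each correlation is built in. The highest medians were those of siLSM14A HU culture 3, siCTRL HU culture 3 (−2.25) and siLSM14A NT culture 2 (−2.32), and the lowest those of siCTRL HU culture 1, siCTRL NT culture 1 (−3.44) and siLSM14A NT culture 3 (−3.35). Cultures of siCTRL HU and of siLSM14A NT stood among both the 3 highest and the 3 lowest. Culture 3 had the highest median in siCTRL NT (−2.49), siCTRL HU and siLSM14A HU, and the lowest in siLSM14A NT. The condition means were −2.91 for siCTRL NT, −3.03 for siCTRL HU, −2.90 for siLSM14A NT and −2.68 for siLSM14A HU.

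The same libraries differed in other ways. The 642 nuclear genes in the lowest 5% of ratios had medians from −2.74 to −1.39 over the 12 cultures, and these correlated with the members' median at r = 0.72 (Spearman's rho 0.76, n = 12). The slope of the log2 ratio on exon GC content over tested genes was positive in every culture, at 0.34 to 0.89 per 10 percentage points, and it correlated with the members' median at r = −0.41 (rho −0.47, n = 12). The part of library composition in the members' ratio was not tested. Of 9007 nuclear genes with a mean of at least 10 CPM, the 5 whose ratio followed the members' median most closely over the 12 cultures were ZBED3 (r = 0.92), POPDC3 (r = 0.92), PHF21A (r = 0.90), TCEAL3 (r = 0.90) and HNRNPD (r = 0.89). The median r over all 9007 genes was 0.17, and the highest 5% of them exceeded 0.72. The median ratios of the 5 named genes ranged from −2.54 for ZBED3 to −0.58 for HNRNPD, so genes with similar patterns over cultures differed in level.

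Among the 10 members, longer genes had lower ratios in most cultures. MT-ND5 (1812 bases), MT-CO1 (1542) and MT-ND4 (1378) are the 3 longest genes of the group and held 3 of its 4 lowest median ratios, and MT-ND3 (346), MT-CO2 (684) and MT-CO3 (784) held the 3 highest. Over the 10 genes, the median ratio and length had a Spearman's rho of −0.76 (Pearson's r with log2 length −0.74), given as a description over genes that share libraries. Within single cultures, rho ran from −0.95 in siLSM14A NT culture 3 to 0.02 in siCTRL HU culture 3, with a median of −0.74. The fitted slope per doubling of length had a median of −0.46 over cultures (range −0.68 to 0.04). Over the tested genes outside mtDNA, the slope on exon length was negative in all 12 cultures, at −0.30 to −0.07 per doubling. That length merges the exons of all annotated transcripts of a gene, so it is not the length of 1 mRNA. MT-ATP6, of 681 bases, had a lower median (−2.93) than MT-CO2 of 684 bases (−2.52). It is carried with MT-ATP8 on 1 longer mRNA, as MT-ND4 is with MT-ND4L. The 3 mtDNA genes outside the group did not follow this order by length. MT-ATP8, of only 207 bases, had the lowest median of all 13, −3.97. MT-ND4L (297 bases) had a median of −3.32 and MT-ND6 (525 bases) one of −2.98.

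Cultures with a higher median had less spread among the 10 mRNAs. The gap between the lowest and the highest member ran from 0.25 in siLSM14A HU culture 3 to 1.83 in siLSM14A HU culture 2, with a median of 1.31, and its rho with the members' median was −0.75 (r = −0.78, n = 12 cultures). In siLSM14A HU culture 3 the ratios lay between −2.36 and −2.11, so all 10 mRNAs kept nearly the proportions of total RNA. The ratio showed no such relation to the share of each gene with nuclear copies. Of the 100-base windows of each gene, 27.9% in MT-CO1, 26.1% in MT-ND2, 11.9% in MT-ATP6, 10.97% in MT-ND1, 4.67% in MT-CO3 and 2.39% in MT-CO2 had an identical copy in the nuclear genome, and none did in MT-ND3, MT-ND4, MT-ND5 and MT-CYB. The rho of this share with the median ratio was −0.04 over 10 genes. A read pair with both ends in such windows could map to more than 1 place, and whether this lowered the levels of MT-CO1 and MT-ND2 was not tested.

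**Figure D4:**
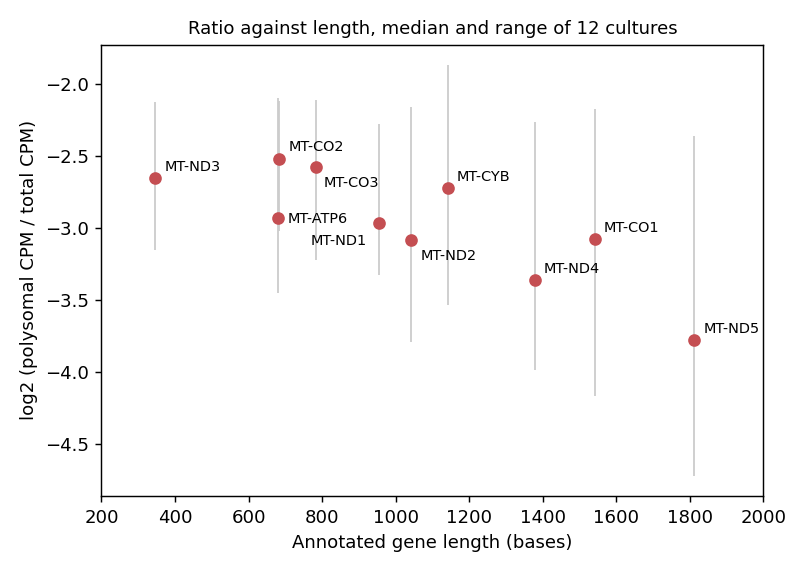
Median log2 ratio of polysomal to total CPM over 12 cultures (y axis, points, with lines from the lowest to the highest culture) against annotated gene length in bases (x axis) for the 10 mRNAs. The ratio falls from the short MT-ND3 and MT-CO2 to MT-ND5, the longest at 1812 bases, and the ranges over cultures overlap.

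The design asks whether LSM14A depletion, HU or both change these mRNAs. In total RNA no member passed the test in any comparison, and the values were tight. Between siLSM14A and siCTRL cells the 10 log2 changes ran from −0.11 to 0.02 without HU (median SE 0.10) and from −0.20 to 0.03 with HU (median SE 0.14), with 0 of 10 members called by edgeR's quasi-likelihood test at an adjusted p under 0.05, against 0.566% and 0.802% of all tested genes. HU changed the 10 mRNAs by −0.03 to 0.07 in siCTRL cells and by −0.16 to 0.09 in siLSM14A cells, with 0 of 10 called, as for 0% of all genes in both. The smallest unadjusted p of a member in these 4 comparisons was 0.190, so 0 of 10 passed it at 0.05 either, where 10.8%, 8.54%, 1.44% and 5.2% of all genes did, in the order given. The 3 libraries of 1 condition overlapped those of the other for every member, whereas 17.2%, 13.8%, 5.29% and 11.4% of genes did not overlap. With DESeq2 0 of 10 were called as well.

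Intervals show what these libraries could have missed. For MT-CO1 the change between siLSM14A and siCTRL cells without HU was 0.02, with 2 SE either side spanning −0.12 to 0.16. For MT-ND3, the least counted member, at 237 to 544 CPM in total RNA, the interval of the same comparison with HU spanned −0.73 to 0.33 around −0.20. In that comparison replicates of the same number varied together, and a model with a block for that number called MT-ND3 lower, at −0.25 (SE 0.0669, adjusted p = 0.0130 by edgeR), 1 of 10 members against 6.85% of all genes. The 3 differences between same-numbered libraries of MT-ND3 were −0.20, 0.15 and −0.71, which has an SD of 0.44 and a fall in 2 of 3 pairs. The SE of the model pools the spread of all genes, and the call was lost with a GC correction added to the block (adjusted p = 0.136).

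Polysomal RNA gave the same counts with wider errors. Between siLSM14A and siCTRL cells the 10 log2 changes ran from −0.39 to 0.10 without HU (median SE 0.37) and from 0.05 to 0.26 with HU (median SE 0.36), and 0 of 10 were called against 0.0162% and 0.0653% of all genes. HU gave −0.27 to 0.27 in siCTRL cells and −0.15 to 0.69 in siLSM14A cells, with 0 of 10 called and 0% of all genes. The members' smallest unadjusted p was 0.112, and 1.96%, 4.99%, 2.1% and 0.871% of all genes passed 0.05 in the 4 comparisons. No member's groups of 3 failed to overlap, against 6.47%, 9.91%, 8.92% and 5.17% of genes. The highest value was that of MT-ND5 with HU in siLSM14A cells. MT-ND5 read 234, 326 and 111 CPM without HU and 295, 189 and 608 CPM with it, a log2 change of 0.69 (SE 0.417, adjusted p = 0.9999 by edgeR), so both groups held high and low libraries. MT-CO1 was next at 0.49 (SE 0.283), from 2083, 2514 and 1304 CPM to 2256, 1993 and 4040 CPM.

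The change of polysomal relative to total RNA, which the study calls translation efficiency (TE), was tested as an interaction term between fraction and condition in edgeR. This fit did not pair the total with the polysomal library of a culture. A model with a block for culture, chosen after seeing the data, called 0 genes in every TE comparison. Between siLSM14A and siCTRL cells the members' log2 changes ran from −0.36 to 0.19 without HU and from 0.07 to 0.28 with HU, and HU gave −0.28 to 0.25 in siCTRL and −0.02 to 0.66 in siLSM14A cells. The median SE was 0.43 to 0.52, 0 of 10 members were called, and so were 0% of all genes in each of the 4. Unadjusted p-values under 0.05 were found for 0 members and for 0.87%, 3.85%, 2.31% and 1.41% of genes, and groups that did not overlap for 0 members and 3.5%, 9.38%, 8.74% and 5.46% of genes. The interaction of HU and siRNA, which asks whether HU acted differently after LSM14A depletion, called 0 of 10 members and 0% of all genes in total RNA, polysomal RNA and TE. Its members' log2 values ran from −0.18 to 0.08 in total RNA, from −0.01 to 0.63 in polysomal RNA and from −0.13 to 0.63 in TE, and at an unadjusted p under 0.05 there were 0 members and 2.9%, 1.07% and 1.9% of genes. For MT-CO1, the highest in both, the interval of 2 SE spanned −0.66 to 1.92 in polysomal RNA and −0.85 to 2.11 in TE, so a 2-fold difference lay within it. DESeq2 also called 0 of 10 members in each of these 11 comparisons.

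**Figure D5:**
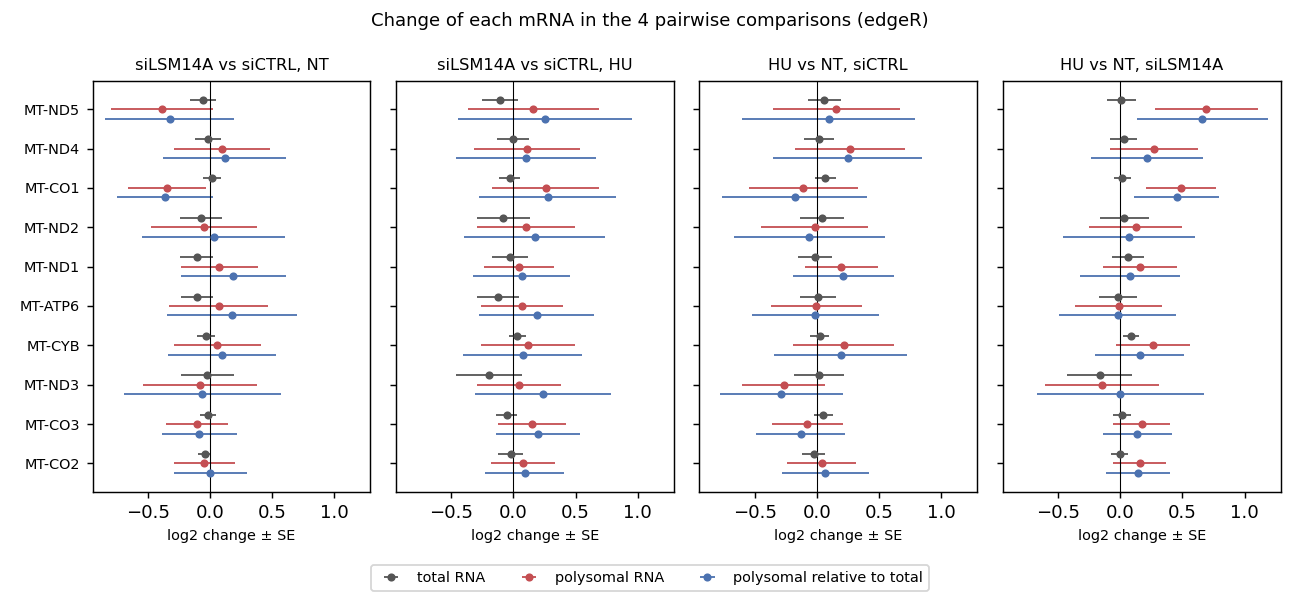
Log2 change with 1 SE (x axis, from edgeR) of each of the 10 mRNAs (y axis) in the 4 pairwise comparisons, for total RNA, polysomal RNA and polysomal relative to total RNA. Total RNA values lie between −0.20 and 0.09 in all panels, and the bars of polysomal RNA reach much wider, with MT-ND5 at 0.69 in siLSM14A cells given HU.

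The nuclear genes that make, process and translate mitochondrial mRNAs showed 1 gene that passed. OXA1L, the insertase that places newly made mtDNA-encoded proteins into the inner membrane, fell in total RNA of siLSM14A cells. OXA1L read 180, 179 and 184 CPM in untreated siCTRL cells and 137, 149 and 144 CPM in untreated siLSM14A cells, a log2 change of −0.35 (SE 0.0525, adjusted p = 0.0154 by edgeR). The groups did not overlap, which held for 17.2% of all genes tested. With HU it read 188, 173 and 176 CPM in siCTRL and 150, 151 and 142 CPM in siLSM14A cells, a change of −0.27 (SE 0.0544, adjusted p = 0.0401). Leaving out 1 culture kept the direction, at −0.38 to −0.32 without HU and −0.30 to −0.24 with HU. It ended the call in 3 of 6 cases without HU (siCTRL NT 2 or 3 or siLSM14A NT 1 left out, adjusted p up to 0.153) and in all 6 with HU (adjusted p 0.0851 to 0.167). With the replicate block the change without HU was −0.35 as before, with an adjusted p of 0.0531 by edgeR, and the one with HU still passed. In polysomal RNA OXA1L read 263, 239 and 194 CPM in untreated siCTRL cells and 174, 182 and 172 CPM in untreated siLSM14A cells, and it did not pass the test there.

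OXA1L was 1 of 16 listed genes of mitochondrial translation, and the other 15 did not pass in any comparison. Over all genes tested, 0.566% passed in total RNA between siLSM14A and siCTRL cells without HU and 0.802% with HU. At most 0.0653% passed in any other comparison, so the absence of calls in a short list says little about it. None of the 9 genes of mitochondrial transcription, the 21 of RNA processing and stability, the 12 of mtDNA replication and nucleotide supply or the 3 other mtDNA mRNAs passed in any of the 15 comparisons. None of the nuclear-encoded subunits, 74 or 75 of 76 by comparison, passed either. With the replicate block in total RNA between siLSM14A and siCTRL cells with HU, where 6.85% of all genes passed as above, 6 of the 75 subunits and 1 of the 21 genes of RNA processing and stability did. The latter was FASTKD1, named after its value was seen, with a log2 change of −0.24 (SE 0.0609, adjusted p = 0.00632 by edgeR with the block). The lowest adjusted p of the 8 genes followed by name was 0.455, that of TFAM. Their log2 changes over the 15 comparisons spanned −0.32 to 0.37 for POLRMT, −0.31 to 0.41 for TFAM, −0.12 to 0.21 for LRPPRC and −0.68 to 0.37 for SLIRP. The spans were −0.13 to 0.33 for PNPT1, −0.20 to 0.48 for MTPAP, −0.24 to 0.14 for TUFM and −0.22 to 0.28 for RRM2B.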

How the data were processed

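RNA from A2058 cells was sequenced from 24 libraries, and samples were grouped by their labels. The authors prepared stranded libraries from polyadenylated RNA with the Illumina TruSeq kit, ran Trim Galore, mapped with STAR 2.6.1a on hg19 and counted genes of Gencode version 34, and the deposited values are raw counts per gene, without normalization. Of 20345 gene IDs, 19637 were in the Gencode version 44 annotation of GRCh37 used here, 19086 of them as protein-coding genes. Those that passed the filter on low counts were tested, 12256 to 12855 by comparison. The version of the mtDNA sequence used for alignment is not given in the sources used here, so positions are those of GRCh37. Library totals of 24789280 to 44897501 counts keep counting error small for the members, whose lowest count was 1313.

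The 10 mRNAs, the gene lists and the tests were chosen with earlier results of these data known. CPM are counts scaled to a library of 1000000, and log2 ratios had a count of 0.5 added. The tests were those of edgeR 4.0.16 in R 4.3.3 (TMM, quasi-likelihood, filterByExpr at a minimum count of 10 and total of 15) on the libraries of each comparison, and on both fractions for TE, with Benjamini-Hochberg adjustment over all genes tested and a threshold of 0.05. Fits were tested on simulated data. The alternatives were DESeq2 1.42.0, RLE size factors, no filter, all genes, scaling on genes outside mtDNA, a replicate block, a GC correction (loess, span 0.3), both together, each culture left out and, chosen after seeing the data, a culture block for TE. Replicates were compared by chi-square, which came to 5.39 to 105 per gene over 24 pairs, so none was a duplicate. Same-numbered samples deviated together, with every correlation over 0.1, in 3 of 8 comparisons within a fraction. These were siLSM14A against siCTRL with HU in total RNA (0.16 to 0.29) and HU against NT in siCTRL in total (0.17 to 0.24) and polysomal RNA (0.14 to 0.39).

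Named were all 10 members, list genes that passed the test, 8 genes of mitochondrial RNA and DNA upkeep, the 5 genes most like the members and the 5 with the lowest ratio (mean of at least 10 CPM), and LSM14A. FASTKD4 and a list of 11 RNAs that are not translated were not found in the table by symbol, and 4 of 13 MT-RNR2-like nuclear genes were in it but none passed the filter.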

Additional observations from a re-analysis of the deposited data

How the results depend on the processing

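The count of members called was 0 of 10 in all 15 comparisons and in 232 of 233 further fits of them, among them 108 with 1 culture left out (0 called in each, lowest and highest). The exception was the replicate block in total RNA of siLSM14A against siCTRL cells with HU, which called 1 member, MT-ND3 at −0.25. The block changed no other call of a member. For 5 of 8 comparisons within a fraction, not every correlation of same-numbered samples was over 0.1. Among these, siLSM14A against siCTRL with HU in polysomal RNA had 0.05, 0.23 and 0.35. OXA1L without HU had a change of −0.35 and an adjusted p of 0.0531 by edgeR with the replicate block. The correlations in that comparison were −0.22, 0.23 and −0.21. Shares and ratios moved by less than 1 SD with every other denominator and scaling. Leaving out 1 culture gave members' median log2 ratios of −3.13 to −2.65 for siCTRL NT, −3.42 to −2.80 for siCTRL HU, −3.20 to −2.68 for siLSM14A NT and −2.91 to −2.47 for siLSM14A HU. The mean polysomal share of siCTRL HU was 0.678% to 1.32% on leaving out 1 culture, the lowest without culture 3. The intervals of polysomal RNA and TE were wider than those of total RNA. The parts of counting error and of spread between libraries in this width were not tested. Counts over all genes moved more. In total RNA of siLSM14A against siCTRL cells, 71 genes were called without HU and 187 with DESeq2, 118 with the GC correction and 45 with the block. With HU, 100 were called, against 189, 158 and 855 in that order and 741 with block and GC correction together. In polysomal RNA the counts were 2 without HU, against 8 with DESeq2, 6 with the GC correction and 4 without the filter, and 8 with HU, against 20 with DESeq2, 40 with the block and 21 with both. For HU against NT in siCTRL cells the block called 15 genes in total RNA (26 with the GC correction) and 1 in polysomal RNA, and DESeq2 called 1 in total RNA, against 0.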
